A study of Rattus norvegicus with 29 samples.

Results

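The diet by refeeding interaction asks whether 6 h of food after a fast changed gene expression in the blood cells of cafeteria rats by a different amount than in those of control rats. It is the difference (Re-feeded_Caf minus Fasted_Caf) minus (Re-feeded_Con minus Fasted_Con), so a positive value means that the change was higher, or the fall smaller, in cafeteria rats. Its groups hold 20 of the 29 arrays of the series, and 28242 of the 41012 probes on the array passed the signal filter and were tested. The cells were peripheral blood mononuclear cells (PBMC), the lymphocytes and monocytes that a Ficoll gradient separates from blood, from male Wistar rats aged 6 months.

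Cafeteria refed rats (5) had eaten chow and an additional energy-dense, high-fat cafeteria diet for 4 months, were fasted for 14 h and then ate freely for 6 h, and cafeteria fasted rats (5) had the same diet and were sampled after 14 h without food. Control refed rats (5) and control fasted rats (5) had eaten standard chow for the same 4 months and went through the same fasting and refeeding. The other 9 arrays, of rats that ate freely (5 cafeteria fed and 4 control fed), served in the fit only to estimate the spread between rats. They also counted in the signal filter. With the filter on the 20 arrays alone 27641 probes were tested, and the interaction count was 0. Each array held the RNA of 1 rat in Cy5 against a Cy3-labelled pool of RNA from all groups, and the values below are log2 ratios of Cy5 over Cy3.

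Refeeding after a fast raises insulin and lowers glucagon, and in tissues such as the liver it switches cells from burning fatty acids to making fatty acids and sterols. Sterol genes answer to the SREBP transcription factors, fatty acid oxidation genes to PPAR receptors, and the immediate early genes are transcription factors that cells induce within minutes of a signal. PBMC preparations usually also carry some platelets, cell fragments that keep the RNA of the megakaryocytes they come from, and some immature red cells.

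Median Cy5 signal lay between 103.2 and 154.2 intensity units, and 53.3% to 66.7% of spots were well above background. The 8 slides shared 1 scanning day, and their images were processed in 2 software runs (image-extraction runs). Run 1 held 1 cafeteria refed, 1 cafeteria fasted, 2 control refed and 4 control fasted arrays, and run 2 held 4 cafeteria refed, 4 cafeteria fasted, 3 control refed and 1 control fasted array. Run and group were thus not balanced, and values within each run are given beside the results they bear on most. A first principal component with 21.98% of the variance followed the mean of the platelet genes described below, with an absolute correlation of 0.9495 over the arrays, given as a description.

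No probe passed the test of the interaction. The count was 0 of 28242 probes (0%) at an adjusted p under 0.05 by limma, and the smallest adjusted p was 0.386. This smallest value depended on the fit: it was 0.0663 with slide as a block, and 0.106 at the lowest with 1 array left out. At an unadjusted p under 0.05 there were 2101 probes, or 7.44%, of which 1255 had a positive and 846 a negative interaction. The count was also 0 with the authors' deposited values, with Cy5 alone, with the scanner software's processed signals and after median centring, where 2499, 1880, 1887 and 1254 probes had an unadjusted p under 0.05. The median probe's unadjusted 95% interval reached 0.23 log2 units to either side of its estimate, with 5 rats a group. A call after adjustment over 28242 probes needed a larger difference than that at most probes. The count of 0 therefore does not exclude differences between diets above 0.23.

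The refeeding response itself was detected in both diets, but in cafeteria rats it depended on the scaling. In cafeteria rats 374 probes (1.32%) changed between refed and fasted animals, 201 of them higher and 173 lower after refeeding. In control rats 2544 probes (9.01%) changed, 866 higher and 1678 lower. With median centring the counts were 0 in cafeteria rats and 921 in control rats, and with the authors' values 3306 control probes were higher and 1123 lower. The interaction is the test of the difference between these 2 responses, and there no probe passed. Read the other way, the interaction compares the diet difference in refed rats, where 104 probes (0.368%) differed between cafeteria and control animals, with that in fasted rats, where 318 probes (1.13%) differed.

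The 2 responses, which come from different rats, ran the same way at most called probes. Of the probes called in either diet, 205 were called in both, which is 54.8% of the cafeteria list and 8.06% of the control list. With median centring 0 probes were called in both. All 205 had the same sign, 139 higher and 66 lower after refeeding. The sign was shared by 98.7% of the probes called in the cafeteria diet and by 91.9% of those called in the control diet, against 64.2% over all probes. Over all probes the 2 changes correlated with a Pearson r of 0.579 and a Spearman rho of 0.469, as a description across probes that share arrays and depth.

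The probes that fell in control rats had a smaller median change in cafeteria rats. Their median change was -0.22 in cafeteria rats and -0.59 in control rats. For probes that rose in control rats the medians were 0.18 in cafeteria rats and 0.30 in control rats. For probes called in cafeteria rats the order was the other way, with medians of 0.42 in cafeteria rats and 0.35 in control rats for rises and -0.46 in cafeteria rats and -0.28 in control rats for falls. A list chosen in one diet shows larger changes there by the choice alone, so these medians carry no test. Over all probes the SD of the change was 0.17 in cafeteria rats and 0.25 in control rats.

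**Figure D1:**
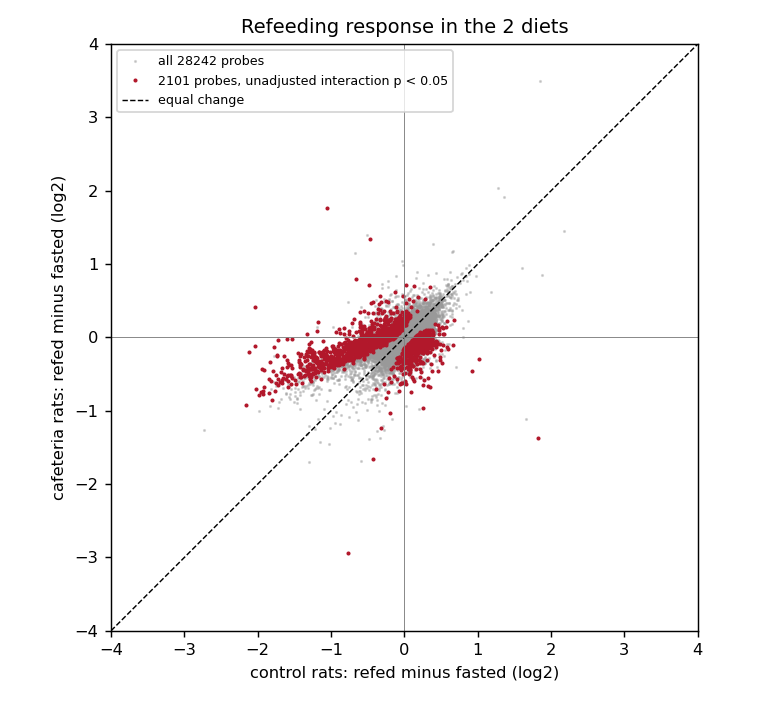
Change between refed and fasted rats (log2) of each of 28242 probes in cafeteria rats (vertical axis) against control rats (horizontal axis), with the 2101 probes of unadjusted interaction p under 0.05 in red and the line of equal change dashed. The red points spread mainly to the left, above the dashed line, where the fall in control rats is larger than in cafeteria rats.

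Platelet genes had the highest median interaction of the 26 gene lists. All 19 measured members of the platelet list had a positive interaction, with a median of 0.91, against a median of -0.0071 over 24354 genes, of which 47.8% were positive. None of the 19 passed the test of the interaction. An unadjusted p under 0.05 was reached by 10, against 1074 of 24354 genes with a positive interaction. In control rats 17 of the 19 fell after refeeding, against 5.94% of all genes, and in cafeteria rats none passed the test, against 0.624% of all genes that fell and 0.751% that rose. The median change of the list was -0.42 in cafeteria rats and -1.54 in control rats. Its median interaction was 0.58 within run 1 and 0.83 within run 2. In bulk samples fewer platelets and less RNA per platelet cannot be told apart.

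The mean of the platelet list on each array was -1.41, -0.87, -0.23, -0.048 and 0.31 in cafeteria refed rats and 0.16, -0.40, -0.12, 0.0041 and 0.13 in cafeteria fasted rats. Among control rats, refed animals had -0.88, -1.16, -0.72, -0.21 and -0.62 and fasted animals 0.60, 0.74, 0.60, 0.43 and 0.57. All control fasted rats lay above all control refed rats, while the cafeteria groups overlapped. The cafeteria refed rats were spread widely, with 2 rats at -1.41 and -0.87, below every cafeteria fasted rat, and 1 rat at 0.31, above every cafeteria fasted rat. The control fasted rats had the highest mean, 0.59 ± 0.11, and cafeteria fasted rats stood at -0.045 ± 0.23 (SD, n = 5 each).

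Promoters of platelet genes often carry the GATA motif bound by GATA1, the factor of the megakaryocyte and red cell lines, and 3 of them are printed here because these genes moved together. The sequences are RefSeq's for the GRCr8 build, 250 bases before to 50 after the start of the gene, 5′ to 3′, with matches on either strand to GATA, with A or T before it and A or G after it, in capitals.
Rgs18, chr13:59066293-59066592, strand -: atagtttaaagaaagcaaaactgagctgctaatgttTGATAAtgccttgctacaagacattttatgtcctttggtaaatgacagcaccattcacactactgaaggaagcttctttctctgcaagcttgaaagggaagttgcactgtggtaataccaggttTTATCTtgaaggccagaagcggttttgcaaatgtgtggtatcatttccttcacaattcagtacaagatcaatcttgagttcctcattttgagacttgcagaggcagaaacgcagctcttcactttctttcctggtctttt
Mmrn1, chr4:91233166-91233465, strand +: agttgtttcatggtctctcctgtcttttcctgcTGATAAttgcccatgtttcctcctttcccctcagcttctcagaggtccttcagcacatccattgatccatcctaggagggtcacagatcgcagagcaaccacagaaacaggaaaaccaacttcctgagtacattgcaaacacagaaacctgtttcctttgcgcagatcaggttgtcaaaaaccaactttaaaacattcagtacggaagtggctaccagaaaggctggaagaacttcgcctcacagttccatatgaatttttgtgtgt
Gp1bb, chr11:95882311-95882610, strand +: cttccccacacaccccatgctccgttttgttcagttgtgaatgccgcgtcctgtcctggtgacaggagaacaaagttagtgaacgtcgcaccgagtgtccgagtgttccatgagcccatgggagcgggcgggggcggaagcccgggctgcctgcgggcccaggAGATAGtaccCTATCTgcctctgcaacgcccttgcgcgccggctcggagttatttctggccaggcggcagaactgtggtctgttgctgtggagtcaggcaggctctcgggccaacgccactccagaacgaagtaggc
Rgs18 and Gp1bb hold 2 matches each and Mmrn1 holds 1 match. Of the platelet genes measured, 15 had a promoter in that RefSeq file and 8 of these (53.3%) held a match, against 30.3% of 33469 promoters. For GATAA alone the shares were 46.7% of these platelet promoters and 26.5% of all. The longer form was chosen after these sequences had been seen. A match is a string of letters and was not tested as a binding site.

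Gp1bb, part of the platelet membrane complex that binds von Willebrand factor, had log2 ratios of -2.12, -1.53, -0.36, -0.11 and 0.50 in cafeteria refed rats and 0.17, -0.50, 0.060, 0.25 and 0.21 in cafeteria fasted rats. The control values were -1.03, -1.89, -0.84, -0.51 and -0.72 after refeeding and 0.80, 1.04, 1.01, 0.55 and 0.82 after the fast alone. The control groups did not overlap and the cafeteria groups did. The change was -0.76 in cafeteria rats (adjusted p = 0.373) and -1.84 in control rats (limma adjusted p = 0.00226), and the interaction was 1.08 ± 0.52 (SE), with an adjusted p of 0.657.

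Pf4, the chemokine platelet factor 4 stored in platelet granules, had an interaction of 1.33 ± 0.61. Its log2 ratios were -1.12, -0.86, 0.064, 0.98 and 0.82 in cafeteria refed rats and 0.83, -0.58, 0.40, 0.32 and 1.22 in cafeteria fasted rats. Control refed rats had 0.62, -1.62, -0.72, 0.12 and -0.20, and control fasted rats had 1.17, 1.50, 1.86, 1.08 and 1.55. In control rats every fasted animal was above every refed one, and in cafeteria rats the 2 groups covered much the same range.

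Treml1, a receptor of platelet granules, had the largest interaction of the list at 1.52 ± 0.55 (unadjusted p = 0.0104, adjusted p = 0.631). Mmrn1, a granule protein that binds clotting factor V, had 1.50 ± 0.58. Clec1b, a platelet activation receptor, had 1.19 and F2rl2, a thrombin receptor, had 1.30. At the low end F2rl3, another thrombin receptor, had 0.11 and Sparc, a matrix protein in platelet granules, had 0.42, and these were the 2 genes that did not pass the test in control rats. Ppbp, a further granule chemokine, had a change of -0.79 in cafeteria rats (adjusted p = 0.378) and fell by 1.27 in control rats.

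Rgs18, a regulator of G protein signalling abundant in platelets, had the smallest interaction p of the platelet list. Its values were -0.85, -0.51, -0.54, -0.62 and -0.31 in cafeteria refed rats and 0.30, -1.11, -0.20, -0.44 and -0.096 in cafeteria fasted rats. Among control rats, refed animals had -1.12, -1.44, -1.03, 0.10 and -0.90 and fasted animals 0.62, 0.96, 0.73, 0.72 and 1.24. The change in control rats was -1.73 (adjusted p = 0.000868) and the interaction 1.47 ± 0.40 (95% interval 0.65 to 2.30, adjusted p = 0.584), and 2.29 within run 1 and 1.46 within run 2. In fasted rats Rgs18 was lower in cafeteria than in control animals, by a difference of -1.16 (adjusted p = 0.0402).

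Several genes outside the platelet list moved with it. Me1, malic enzyme, which supplies NADPH for fatty acid synthesis, had -2.08, -1.60, -0.58, -0.46 and 0.37 in cafeteria refed rats and 0.25, -0.36, -0.34, 0.22 and 0.51 in cafeteria fasted rats. The control values were -1.60, -2.23, -1.39, -1.08 and -1.15 after refeeding and 0.65, 1.05, 0.42, 0.67 and 0.55 after the fast alone, again with no overlap in control rats and an overlap in cafeteria rats. Its interaction was 1.23 ± 0.50 (adjusted p = 0.631), and 0.89 within run 1 and 1.03 within run 2. Cst3, the protease inhibitor cystatin C, had 1.32 ± 0.49, after changes of -0.70 in cafeteria rats (adjusted p = 0.382) and -2.03 in control rats (adjusted p = 0.000995). With the platelet mean of each array as a covariate the interaction of Me1 was 0.049 and that of Cst3 was 0.19. That of Pf4 was 0.13, but Pf4 is itself part of that mean.

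With that covariate the number of probes called in control rats was 6 rather than 2544, and in cafeteria rats it was 356 rather than 374. The platelet mean ran from 0.43 to 0.74 in control fasted and from -1.16 to -0.21 in control refed rats. Covariate and refeeding are thus largely confounded in control rats, but less so in cafeteria rats, whose groups overlapped. At an unadjusted p under 0.05 by limma the control count with the covariate was 4007 rather than 6193. The median interaction of the platelet list was then -0.025, as the covariate is the mean of that list. The interaction count stayed at 0, and 1731 probes had an unadjusted p under 0.05. The part of the platelet signal in the results that follow was not tested beyond these values.

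**Figure D2:**
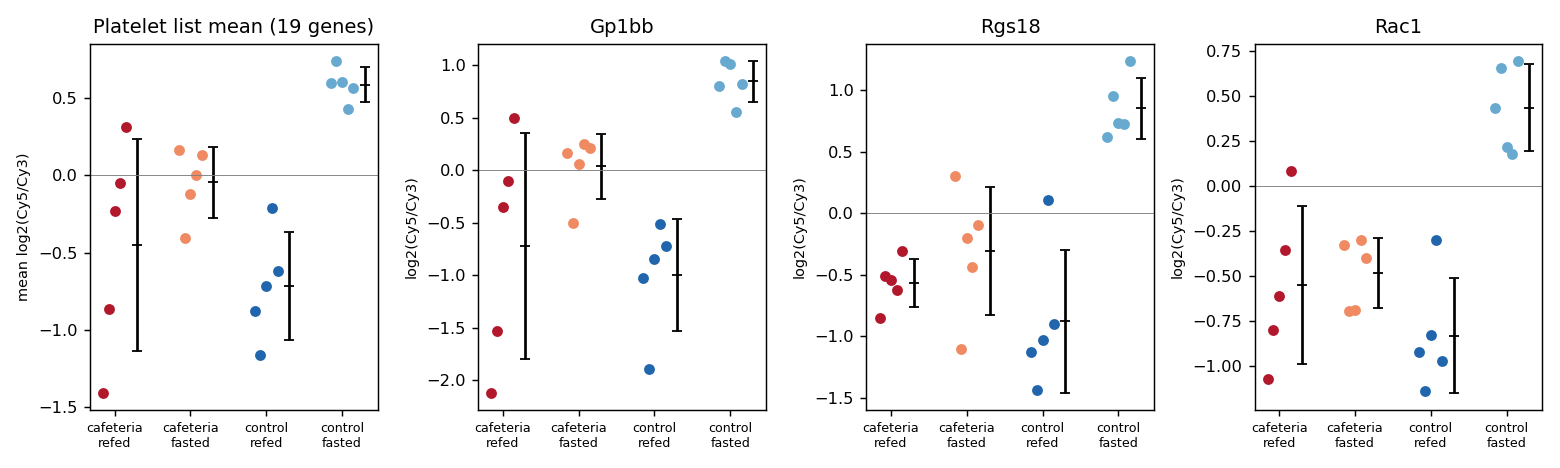
Mean log2 ratio of the 19 platelet genes and log2 ratios of Gp1bb, Rgs18 and Rac1 on each array (points, by rat number), with the group mean and SD beside them, for cafeteria refed, cafeteria fasted, control refed and control fasted rats. Control fasted rats stand above all control refed rats in each panel, and the cafeteria groups overlap.

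Among all genes with a symbol, the smallest interaction p belonged to Mast4, a microtubule-associated kinase, with 0.51 ± 0.11 (95% interval 0.29 to 0.72, unadjusted p = 5.46e-05, adjusted p = 0.386). Its change was 0.23 in cafeteria rats (adjusted p = 0.128) and -0.27 in control rats (adjusted p = 0.0188). The probe, at chr2:33647212-33647271 of the rn4 build, was dim: its signal was well above background on all 5 cafeteria refed arrays and 1 of 5 cafeteria fasted arrays, and on 4 control refed and 5 control fasted arrays.

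Bet1, which guides vesicles from the endoplasmic reticulum to the Golgi, had the smallest p among genes with signal well above background on all 20 arrays. Its values were 0.24, 0.11, 0.28, 0.26 and 0.073 in cafeteria refed rats and 0.19, -0.059, 0.013, 0.022 and 0.27 in cafeteria fasted rats. Control refed rats had 0.18, -0.038, -0.21, 0.15 and -0.10, and control fasted rats had 0.63, 0.25, 0.60, 0.29 and 0.56. Control fasted rats were all above control refed rats, and cafeteria rats overlapped. The change was 0.11 in cafeteria rats (adjusted p = 0.681) and -0.47 in control rats (adjusted p = 0.00248), which gave an interaction of 0.58 ± 0.13 (adjusted p = 0.501). It was 0.57 with the platelet covariate, 0.68 within run 1 and 0.67 within run 2.

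Rac1, a small GTPase of the actin cytoskeleton, had -1.07, -0.80, -0.61, -0.36 and 0.083 in cafeteria refed rats and -0.33, -0.69, -0.69, -0.30 and -0.40 in cafeteria fasted rats. Among control rats, refed animals had -0.92, -1.14, -0.83, -0.30 and -0.97 and fasted animals 0.43, 0.65, 0.21, 0.18 and 0.70. Only control fasted rats stood above the pool as a group. The change was -0.069 in cafeteria rats and -1.27 in control rats (adjusted p = 0.00116), with an interaction of 1.20 ± 0.31 that was 0.51 with the platelet covariate. Its other probe had an interaction of 0.34. Dcun1d1, which helps attach NEDD8 to cullins, had an interaction of 0.74 ± 0.19, and 0.37 with the covariate.

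Other genes with small p had smaller positive interactions. Hibch, an enzyme of valine breakdown, had 0.47 ± 0.13, and 0.46 with the covariate. Its change was 0.00036 in cafeteria rats and -0.47 in control rats (adjusted p = 0.00194), and in fasted rats it was lower in cafeteria animals (difference -0.49, adjusted p = 0.00623). Map1lc3b, the LC3B protein of autophagosomes, had an interaction of 0.34 ± 0.089, and 0.27 with the covariate, while its 2 other probes had a median of 0.021. Its change was 0.089 in cafeteria rats (adjusted p = 0.586) and -0.25 in control rats (adjusted p = 0.0109). Dusp15, a phosphatase, had 0.28 ± 0.065, and 0.21 with the covariate, with a change of -0.33 in control rats (adjusted p = 0.000579).

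Cpt1a, which carries long-chain fatty acids into mitochondria and is the rate-limiting step of their oxidation, was the list member of fatty acid oxidation with the smallest interaction p. Its values were 0.053, 0.0061, 0.34, 0.25 and 0.22 in cafeteria refed rats and 0.11, 0.27, 0.13, 0.27 and 0.062 in cafeteria fasted rats. The control values were -0.44, -0.35, -0.55, -0.68 and -0.33 after refeeding and -0.030, -0.083, -0.025, -0.078 and -0.18 after the fast alone. The 2 cafeteria groups overlapped, while every control refed rat was below every control fasted one.

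The change of Cpt1a was 0.0057 in cafeteria rats (adjusted p = 0.985) and -0.39 in control rats (adjusted p = 0.00216). The interaction was 0.40 ± 0.11 (95% interval 0.17 to 0.62, unadjusted p = 0.0011, adjusted p = 0.584). In refed rats Cpt1a was higher in cafeteria than in control animals by 0.65 (adjusted p = 0.000163), which was the smallest adjusted p of that comparison, and in fasted rats the difference was 0.25 (adjusted p = 0.108). The refed groups did not overlap. Among rats that ate freely, cafeteria animals had 0.12 ± 0.12 (SD, n = 5) and control animals -0.41 ± 0.15 (SD, n = 4), beside -0.47 ± 0.15 (SD, n = 5) in control refed rats. The interaction was 0.31 with the platelet covariate, 0.13 within run 1 and 0.40 within run 2. Over the list of fatty acid oxidation and PPAR genes, 16 of 30 were positive and the median was 0.0025, near the value of all genes.

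Slc27a2, a fatty acid transporter of the same list, separated rats rather than groups. It had -4.85, -4.51, -0.20, -4.86 and -2.04 in cafeteria refed rats and 0.95, -0.55, -4.86, -4.26 and 0.68 in cafeteria fasted rats. Control refed rats had 0.93, 1.39, -0.53, -4.65 and -3.99, and control fasted rats had -0.15, -4.77, 0.033, -0.61 and 1.61. Each group held rats near the pool and rats more than 3 log2 units below it, and the interaction of -1.09 had a 95% interval of -4.96 to 2.77.

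**Figure D3:**
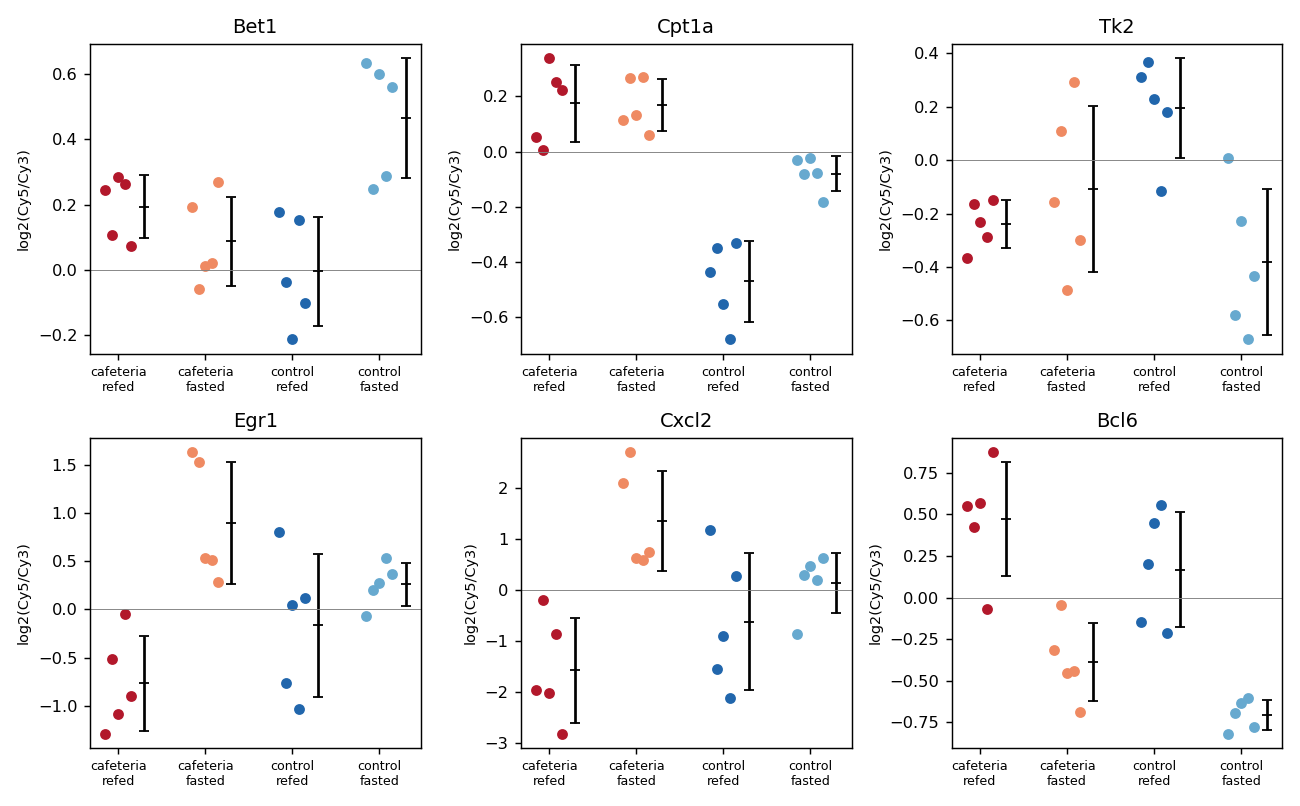
Log2 ratios of Bet1, Cpt1a, Tk2, Egr1, Cxcl2 and Bcl6 on each array (points), with the group mean and SD, for cafeteria refed, cafeteria fasted, control refed and control fasted rats. Of these 4 groups Cpt1a is lowest in control refed rats, Egr1 and Cxcl2 are highest in cafeteria fasted rats, and Bcl6 is higher in refed than in fasted rats of both diets.

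Genes of sterol synthesis and uptake leaned the other way. Of 25 measured members 20 had a negative interaction, with a median of -0.16. Of the negative ones 6 had an unadjusted p under 0.05, against 740 of 24354 genes. In control rats 5 members rose after refeeding, against 3.25% of all genes. In cafeteria rats none passed the test in either direction, against 0.751% of all genes that rose and 0.624% that fell. The array mean of the list was -0.046 in cafeteria refed, -0.036 in cafeteria fasted, 0.084 in control refed and -0.062 in control fasted rats. The median interaction was -0.025 with median centring, -0.060 within run 1 and -0.23 within run 2.

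Msmo1, a sterol methyl oxidase, had 0.12, -0.19, -0.11, -0.33 and -0.047 in cafeteria refed rats and -0.014, -0.50, 0.078, -0.62 and -0.18 in cafeteria fasted rats. Among control rats, refed animals had -0.035, 0.24, 0.34, 0.35 and -0.16 and fasted animals -0.49, -0.47, -0.38, -0.16 and -0.57. The groups of both diets overlapped. The change was 0.14 in cafeteria rats (adjusted p = 0.703) and 0.56 in control rats (adjusted p = 0.00553), and the interaction was -0.42 ± 0.18, but 0.14 within run 1 and -0.73 within run 2.

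Acat2, which makes acetoacetyl-CoA at the start of the pathway, had -0.49 ± 0.19 and rose in control rats by 0.53 (adjusted p = 0.0126). Dhcr7, the last enzyme of cholesterol synthesis, had -0.27 and rose in control rats by 0.37 (adjusted p = 0.00608). Srebf2, the transcription factor of the pathway, had -0.39 ± 0.15, and its other probe had the opposite sign. Idi1, isopentenyl diphosphate isomerase, had -0.46 ± 0.17 from a change of -0.37 in cafeteria rats (adjusted p = 0.116) and 0.092 in control rats. Scarb1, the receptor for high-density lipoprotein, had -0.48 ± 0.19, but it belongs to a separate list of sterol efflux genes. Of the 12 measured members of that list 6 were positive, with a median of -0.0070.

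Fatty acid synthesis genes were split. Of 21 measured genes 8 were positive, and the median was -0.099, but 0.024 with median centring. Fasn, fatty acid synthase, had -0.19 ± 0.11 after a rise of 0.26 in control rats (adjusted p = 0.0323) and a change of 0.071 in cafeteria rats (adjusted p = 0.749). Acly, which makes the acetyl-CoA for it, had -0.26. Fads1 and Elovl5, which desaturate and lengthen polyunsaturated fatty acids, were positive with 0.86 and 0.32, and both fell in control rats. With the platelet covariate both had an interaction of 0.19. Srebf1, the SREBP factor of fatty acid synthesis, had -0.16 ± 0.15, with 1 of its 2 other probes of opposite sign, and Ucp2, a mitochondrial carrier, had 0.12 ± 0.14.

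The negative interactions with the smallest p included Sstr3 and Tk2, whose estimated changes had opposite signs in the 2 diets. Neither gene passed the test in cafeteria rats. Sstr3, a somatostatin receptor, had -0.16, -0.11, -0.22, -0.064 and -0.51 in cafeteria refed rats and -0.061, 0.075, -0.076, 0.23 and -0.048 in cafeteria fasted rats. The control values were 0.060, -0.15, -0.034, -0.16 and 0.17 after refeeding and -0.53, -0.28, -0.45, -0.074 and -0.81 after the fast alone. The groups overlapped in both diets. The change was -0.24 in cafeteria rats (adjusted p = 0.347) and 0.41 in control rats (adjusted p = 0.0172), and the interaction was -0.65 ± 0.15 (adjusted p = 0.552).

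Tk2, the mitochondrial thymidine kinase, had -0.37, -0.16, -0.23, -0.29 and -0.15 in cafeteria refed rats and -0.16, 0.11, -0.49, 0.29 and -0.30 in cafeteria fasted rats. Control refed rats had 0.31, 0.37, 0.23, -0.11 and 0.18, and control fasted rats had 0.0082, -0.58, -0.23, -0.67 and -0.43. It rose in control rats by 0.58 (adjusted p = 0.00412), its change in cafeteria rats was -0.13 (adjusted p = 0.71), and the interaction was -0.71 ± 0.18, and -1.18 within run 1 and -0.58 within run 2. The fasted cafeteria rats covered most of the range of all 4 groups.

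Slfn9, of the interferon-inducible Schlafen family, had -0.91 ± 0.25, from -0.45 in cafeteria rats and 0.45 in control rats, neither of which passed the test. Cdh23, a cadherin, had -0.62 ± 0.18 from -0.31 in cafeteria rats and 0.31 in control rats, and -0.26 within run 2. Atn1, a transcriptional corepressor, had -0.32 ± 0.097. Hdgf, a growth factor that binds chromatin, had -0.24 ± 0.065 and Lima1, an actin-binding protein, had -0.30 ± 0.080, and both rose in control rats. Armcx6 had -0.48 ± 0.13 and fell in cafeteria rats by 0.43 (adjusted p = 0.02). Cpsf6, a pre-mRNA cleavage factor, had -0.38 ± 0.11, with 1 of its 2 other probes of opposite sign.

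Immediate early genes had mostly negative interactions, 25 of 28, with a median of -0.21, and 3 of the negative ones had an unadjusted p under 0.05, against 740 of 24354 genes. The median was -0.13 without control fasted rat 2. In cafeteria rats 3 of them fell after refeeding, against 0.624% of all genes. In control rats none passed the test, against 3.25% of all genes that rose and 5.94% that fell. The array means of the list lay between -0.35 and 0.038 in cafeteria refed rats and between 0.10 and 0.34 in cafeteria fasted rats, and between -0.33 and 0.10 in control refed rats and between -0.22 and 0.15 in control fasted rats. The cafeteria groups did not overlap and the control groups did. Within run 1 the median interaction was -0.37 and within run 2 it was 0.090. After median centring it was -0.089, and with the authors' values -0.40.

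Egr1, a zinc finger transcription factor of this class, is switched on through serum response elements, and its promoter is printed because Egr1 had the largest fall of the list in cafeteria rats. The sequence is RefSeq's for GRCr8 over the same window around the start, with matches to the CArG box, the core of such an element, in capitals.
Egr1, chr18:26736828-26737127, strand +: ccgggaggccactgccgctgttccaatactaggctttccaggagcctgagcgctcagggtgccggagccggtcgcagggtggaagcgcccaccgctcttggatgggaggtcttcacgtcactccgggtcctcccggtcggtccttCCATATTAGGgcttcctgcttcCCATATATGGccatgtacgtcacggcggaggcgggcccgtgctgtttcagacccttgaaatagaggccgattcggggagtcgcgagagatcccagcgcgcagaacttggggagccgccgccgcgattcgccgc
It holds 2 matches, and 1.64% of 33469 promoters hold any. Of 18 measured immediate early genes with a promoter in that RefSeq file, 4 (22.2%) hold one.

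The log2 ratios of Egr1 were -1.29, -0.51, -1.08, -0.049 and -0.90 in cafeteria refed rats and 1.63, 1.53, 0.53, 0.51 and 0.29 in cafeteria fasted rats. Among control rats, refed animals had 0.81, -0.76, 0.051, -1.04 and 0.12 and fasted animals -0.072, 0.20, 0.27, 0.53 and 0.37. Every cafeteria fasted rat was above every cafeteria refed rat, 2 of them by a wide margin, and the control groups overlapped. Egr1 fell by 1.66 in cafeteria rats (adjusted p = 0.0122), its change in control rats was -0.42 (adjusted p = 0.507), and the interaction was -1.24 ± 0.48 (95% interval -2.21 to -0.26, unadjusted p = 0.0151, adjusted p = 0.631). It was -2.60 within run 1 and -0.71 within run 2. Atf3 and Nr4a2, further immediate early factors, also fell in cafeteria rats, by 1.13 and 0.71, and had interactions of -0.49 and -0.28. Without control refed rat 3 these were -0.29 and -0.14, and that of Nr4a2 was -0.18 without cafeteria refed rat 15. Within run 2 they were 0.016 and 0.36.

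Chemokine and inflammation genes followed the same pattern, with a negative interaction in 19 of 22 and a median of -0.28, which was -0.50 within run 1 and 0.023 within run 2. In cafeteria rats 5 fell, against 0.624% of all genes, and in control rats 2 of 22 fell, against 5.94%. Cxcl2, a chemokine that attracts neutrophils, had -1.97, -0.20, -2.03, -0.86 and -2.82 in cafeteria refed rats and 2.11, 2.71, 0.63, 0.59 and 0.76 in cafeteria fasted rats. The control values were 1.19, -1.55, -0.91, -2.12 and 0.28 after refeeding and -0.87, 0.29, 0.47, 0.20 and 0.63 after the fast alone. The cafeteria groups were fully apart, and control refed rats ranged over both of them.

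Cxcl2 fell by 2.94 in cafeteria rats (adjusted p = 0.0333), and its change in control rats was -0.77 (adjusted p = 0.582). The interaction of -2.17 ± 1.00 had a 95% interval of -4.22 to -0.12 and an adjusted p of 0.644, and it was -4.47 within run 1 and -0.96 within run 2. Cxcl1, a close relative, had -0.92 ± 0.42 (-0.58 without cafeteria fasted rat 5), with signal well above background on 1 of 5 cafeteria refed arrays, 5 cafeteria fasted arrays, 3 control refed arrays and 5 control fasted arrays. Cxcl3, of the same group, had -0.66 (-0.43 without cafeteria fasted rat 5) and fell in cafeteria rats by 0.73 (adjusted p = 0.0494).

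Glucocorticoid-induced genes had a negative interaction in 19 of 21, with a median of -0.23. In cafeteria rats 4 fell, against 0.624% of all genes, and in control rats 1 rose, against 3.25%. Within run 1 the median was -0.32 and within run 2 it was 0.037. The median also depended on the scaling, with -0.038 after median centring and -0.39 with the authors' values. Per1, a clock gene that glucocorticoids induce, had -0.54, -0.16, -0.60, -0.11 and -0.76 in cafeteria refed rats and -0.060, 0.74, 0.16, 0.39 and 0.33 in cafeteria fasted rats. Control refed rats had -0.020, -0.30, -0.39, -0.61 and -0.16, and control fasted rats had 0.013, -0.24, 0.30, -0.69 and 0.26. The cafeteria groups stood apart by a narrow gap and the control groups overlapped. Per1 fell by 0.75 in cafeteria rats (adjusted p = 0.031), its change in control rats was -0.22 (adjusted p = 0.511), and the interaction was -0.53 ± 0.25 but 0.026 within run 2. Cdkn1a, the cell cycle inhibitor p21, Sgk1, a kinase, and Mt1, a metallothionein, fell in cafeteria rats by 0.81, 0.85 and 0.61, and their interactions were -0.57, -0.39 and -0.23. That of Sgk1 was -0.20 without cafeteria fasted rat 11, -0.24 without control refed rat 6 and 0.28 within run 2, and that of Mt1 was -0.15 without control refed rat 15.

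Interferon response genes had a negative interaction in 25 of 32, with a median of -0.35. None passed the test in cafeteria rats, against 0.751% of all genes that rose and 0.624% that fell, and 2 fell in control rats, against 5.94%. In refed rats 1 member was lower in cafeteria than in control animals, against 56 of 24354 genes. The median was -0.13 without cafeteria fasted rat 14, whose list mean of 0.68 lay far above the other cafeteria fasted rats (-0.12 to 0.045), and 0.11 within run 1 and -0.20 within run 2. Mx2, an antiviral GTPase, had -0.73, -1.41, -0.27, -0.41 and -1.47 in cafeteria refed rats and 0.0043, 0.37, 0.71, 0.24 and 0.46 in cafeteria fasted rats. Among control rats, refed animals had -1.37, 0.23, 0.016, 0.20 and -0.34 and fasted animals 0.84, -0.81, 0.22, -0.34 and 0.27. The cafeteria groups did not overlap, although the change of -1.21 had an adjusted p of 0.0637, and the interaction was -0.92 ± 0.47. Oas1a, which makes the activator of RNase L, had -0.83 ± 0.40, but -0.47 without cafeteria fasted rat 14 and 0.12 within run 1.

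Some genes changed alike in both diets. Bcl6, a transcriptional repressor known from germinal centre B cells, rose by 0.86 in cafeteria rats (adjusted p = 0.00651) and by 0.88 in control rats (adjusted p = 0.00124). Its values were 0.55, 0.43, 0.57, -0.069 and 0.87 in cafeteria refed rats and -0.31, -0.043, -0.45, -0.44 and -0.69 in cafeteria fasted rats. The control values were -0.15, 0.20, 0.45, 0.55 and -0.21 after refeeding and -0.82, -0.70, -0.63, -0.60 and -0.78 after the fast alone. The 2 cafeteria groups touched at 1 refed rat and the control groups did not overlap. The interaction was -0.017 ± 0.22. Its 95% interval of -0.47 to 0.43 still allows a difference in either direction.

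Per2, a clock repressor, rose by 0.62 in cafeteria rats and 0.66 in control rats, and its interaction had a 95% interval of -0.35 to 0.27. Nfil3, a clock-controlled repressor, fell by 0.72 in cafeteria rats and 0.67 in control rats (interval -0.51 to 0.40). Scd2, a fatty acid desaturase, rose by 0.49 in cafeteria rats and 0.51 in control rats (interval -0.33 to 0.30), and Abcg1, a cholesterol exporter, rose by 0.40 in cafeteria rats and 0.39 in control rats (interval -0.26 to 0.27). Hspa5, the main chaperone of the endoplasmic reticulum, fell by 0.45 in cafeteria rats and 0.40 in control rats (interval -0.34 to 0.23). Its list of such chaperones leaned positive, with 10 of 16 measured members, against 47.8% of all genes. The median interaction of that list was 0.15, and 0.47 within run 1 and -0.011 within run 2. Control fasted rat 2 had a list mean of 0.79, against a median of 0.017 in its group. Id3, an inhibitor of helix-loop-helix factors, rose by 0.83 in cafeteria rats and 0.97 in control rats, with 1 of its 2 other probes of opposite sign in the interaction.

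Ccl2, the chemokine that recruits monocytes, had -1.13, -0.60, -0.58, -0.39 and -0.78 in cafeteria refed rats and 1.21, 0.61, 0.40, 0.052 and 1.34 in cafeteria fasted rats. Control refed rats had 0.42, -0.29, -0.096, -1.10 and -0.13, and control fasted rats had 0.84, 1.37, 0.23, 0.99 and 1.103. It fell by 1.42 in cafeteria rats (adjusted p = 0.0101) and by 1.15 in control rats (adjusted p = 0.00786). The interaction of Ccl2 was -0.27 ± 0.39, and -0.94 within run 1 and 0.20 within run 2. Cxcl10, an interferon-induced chemokine, also fell in both, by 1.24 and 1.01. Both genes passed the test in both diets.

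Ribosomal protein genes had a negative interaction in 58 of 66, with a median of -0.23, and 16 had an unadjusted p under 0.05, against 740 of 24354 genes. Their array mean was 0.29 in cafeteria refed, 0.32 in cafeteria fasted, 0.41 in control refed and 0.24 in control fasted rats. Rpl26 rose in control rats by 0.31 (adjusted p = 0.0334), and it was the only member called in either diet, against 3.25% of all genes that rose in control rats. Rpl7 had -0.49 ± 0.22. Rpl5 had -0.63 ± 0.31, but -0.30 without cafeteria fasted rat 14 and 0.10 with Cy5 alone. The median of the list depended on the scaling: it was 0.027 with median centring and -0.11 with Cy5 alone. Within run 1 it was -0.31 and within run 2 it was -0.26.

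Genes induced by amino acid shortage had a median interaction of 0.19 over 13 members, 9 of them positive, and 4 fell in control rats, against 5.94% of all genes. The median was -0.053 within run 1, 0.21 within run 2, 0.042 with the authors' values and 0.077 with the platelet covariate. Atf5 and Ddit3, stress transcription factors, had 1.101 ± 0.43 and 0.41 ± 0.17, and 0.33 and 0.21 with the platelet covariate. Atf4, their common activator, had 0.19 and fell in control rats by 0.50 (adjusted p = 0.00158). Cox5a, a subunit of cytochrome oxidase, had 0.69 ± 0.23, against a median of -0.046 over 57 respiratory chain genes. Gapdh, a glycolytic enzyme often used as a control gene, had 0.58 ± 0.25 after a fall of 0.88 in control rats (adjusted p = 0.00276), and -0.021 with the platelet covariate. Dbp and Nr1d1, clock-controlled transcription factors, had -0.36 and -0.24, and both rose in control rats. That of Dbp was -0.19 without cafeteria fasted rat 2.

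Markers of other blood cells were measured in the same way. Red cell genes had a positive interaction in 14 of 14, with a median of 0.53. Ahsp, which stabilises alpha globin, had 1.00 ± 0.59, Bpgm, which makes the regulator of haemoglobin, had 0.76 ± 0.34, and Hbb, beta globin, had 0.72. Only Ermap, a red cell membrane protein, passed the test in either diet, falling in control rats by 0.22, against 5.94% of all genes that fell there. The array means of the list ran from -0.52 to 0.78 in cafeteria refed rats, -0.35 to 0.17 in cafeteria fasted rats, -1.06 to 0.23 in control refed rats and -0.79 to 0.52 in control fasted rats, so all groups overlapped. The median was 0.012 within run 1, 0.17 within run 2, 0.27 without control fasted rat 5 and 0.28 without control refed rat 3.

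Natural killer and cytotoxic genes had a negative interaction in 17 of 17, with a median of -0.49, and none passed the test in either diet. The shares over all genes were 3.25% higher and 5.94% lower in control rats, and 0.751% higher and 0.624% lower in cafeteria rats. Gzmm, a granzyme, and Nkg7, a granule protein, had -0.71 ± 0.32 and -0.64 ± 0.29. Their array means ran from -1.18 to 0.093 in cafeteria refed rats, -0.32 to 0.40 in cafeteria fasted rats, -0.26 to 0.62 in control refed rats and -0.50 to 0.25 in control fasted rats. The lowest was cafeteria refed rat 15, without which the median was -0.24, and without control refed rat 6 it was -0.31. The median was -0.068 within run 1 and -0.11 within run 2, and -0.13 with the platelet covariate.

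Plasma cell genes had a median of 0.37 over 8 members, which rested on 1 control fasted array with a list mean of 2.02 and was -0.098 without it. The defining lists of T cells (18 measured), B cells (12), monocytes (15) and neutrophils (12) had medians of -0.081, 0.079, -0.068 and 0.046. Of these 4 lists, the only member called in either diet was 1 monocyte gene that rose in control rats. Of all genes, 3.25% rose and 5.94% fell in control rats, and 0.751% rose and 0.624% fell in cafeteria rats. The part of cell makeup in the interaction was not tested.

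**Figure D4:**
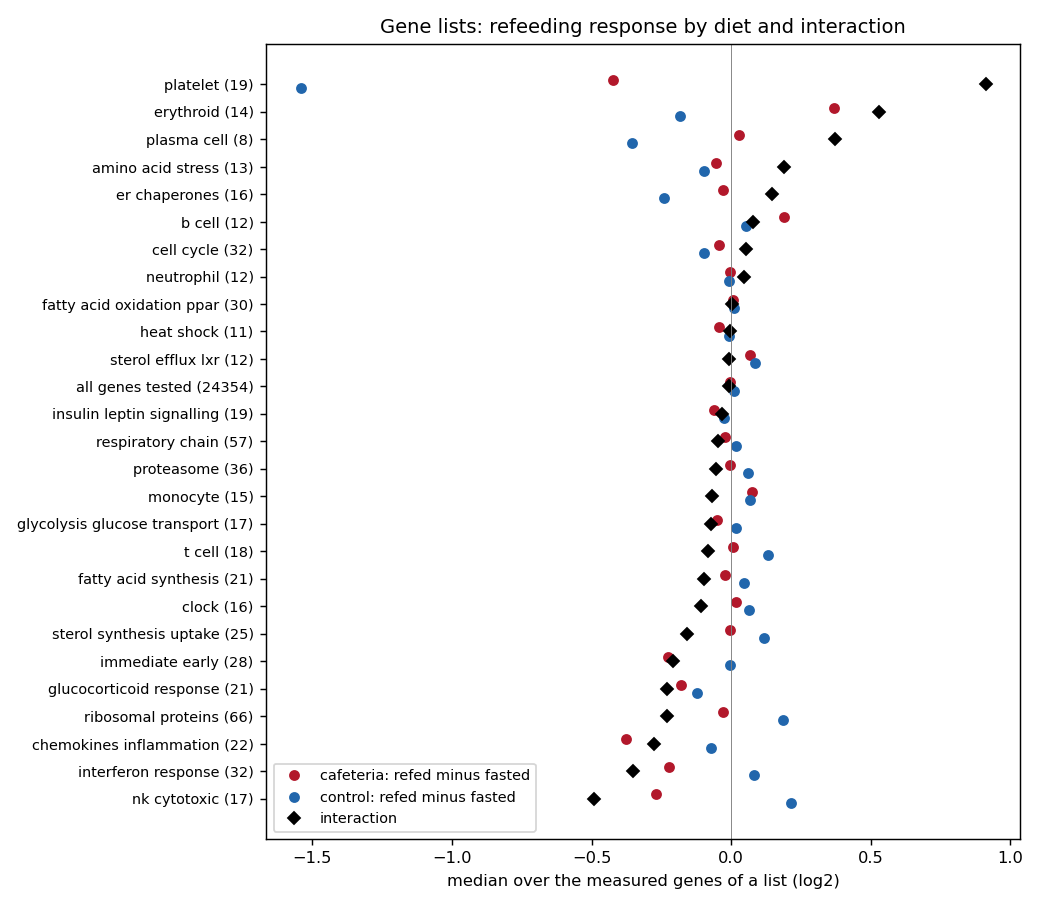
Median change between refed and fasted rats (log2) over the measured genes of each list in cafeteria rats (red) and control rats (blue), with the median interaction (black), lists in order of the interaction and their number of measured genes in brackets. Platelet genes stand at one end with 0.91 and natural killer genes at the other with -0.49, and most metabolic lists lie near the value of all genes.

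The image-extraction runs gave the same sign for many of the named genes but not all. Over all probes the interaction within run 1 and that within run 2 correlated with r = 0.198, as a description, where run 1 rests on 1 cafeteria refed and 1 cafeteria fasted array and run 2 on 1 control fasted array. Mast4, Bet1, Rac1, Hibch, Pf4, Tk2, Sstr3 and Slfn9 had the same sign in both runs. All but Pf4 were named for their small interaction p over both runs together, so their shared sign is partly set by that choice. In each run alone 1 probe passed the test, that of Or52e5, an olfactory receptor, in run 1 with -1.84 and an unnamed one in run 2 with 2.23, where a group is represented by 1 array and is assumed to vary like the rest.

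**Figure D5:**
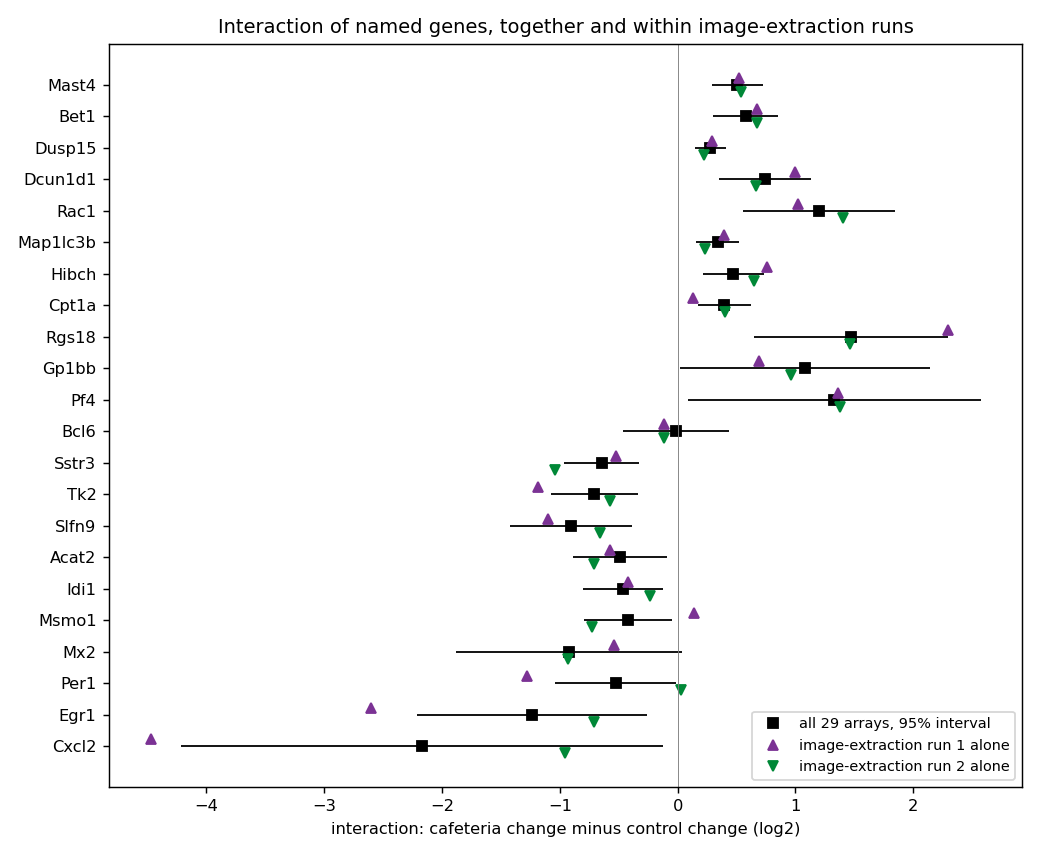
Interaction (log2) of 22 named genes from all 29 arrays (black squares with 95% interval) and from each image-extraction run alone (triangles). Most genes keep their sign in both runs, while Msmo1 changes sign in run 1 and Per1 in run 2.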

How the data were processed

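RNA from blood mononuclear cells of 29 rats was hybridised on 29 two-colour Agilent arrays, with the rat in Cy5 and a pooled reference in Cy3. The scanner output deposited by the authors holds, per its headers, mean and local background intensity per spot and processed signals from Feature Extraction 9.5.1.1, with positions on rn4. The authors' deposited value table, called normalized Cy5 signal per the labels, proved to hold log2 values (slope 0.985 to 1.02 against log2 of scanner Cy5); its between-array normalization is not given in the sources used here, and its column medians lay between 9.37 and 9.76.

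Intensities were corrected with normexp (offset 50), and log2 Cy5/Cy3 ratios were loess-normalized within arrays (R 4.3.3, limma 3.58.1 and version 1.17.8 of data.table). Control and outlier spots had weight 0, outlier spots were left out, and replicate spots were averaged. Kept were 28242 of 41012 probes with Cy5 well above background on at least 4 of 29 arrays. One limma fit (lmFit, eBayes) held the means of the 6 groups, with 2-sided p-values, Benjamini-Hochberg adjustment over all 28242 probes and calls at an adjusted p under 0.05. Errors after ± are standard errors unless SD is written, and intervals are 95%. Each gene is its brightest probe (24354 genes, 11277 with a symbol). Symbols came from RefSeq genes of GRCr8, and 161 names were set aside because the probe lies on another chromosome.

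The members, gene lists and tests were chosen with earlier results of these data known. Named genes are the 12 smallest interaction p in each direction, the 2 largest interactions per list, 5 genes with opposite changes in the 2 diets and a fixed set (Bcl6, Egr1, Cpt1a and others), and the text names part of them. Further list members were named after their values were seen. The fit was tested on simulated data. Other normalizations, filters, blocks, a platelet covariate and leaving out each array were tried. The rats are separate animals, and their number limits the precision.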

Additional observations from a re-analysis of the deposited data

Results flagged for a closer look

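In 108 groups of 5 arrays (17 genes and 10 list means), 4 held an array far from the others of its group, and chance alone would give about 1 in 20. Gp1bb stood at -0.50 in cafeteria fasted rat 5, against 0.060 to 0.25 in the other 4 rats of its group. The interferon list had a mean of 0.68 in cafeteria fasted rat 14, against -0.12 to 0.045 in the others, and the natural killer list had -1.18 in cafeteria refed rat 15, against -0.28 to 0.093 in the others. Cxcl2 was -0.87 in control fasted rat 2, against 0.20 to 0.63 in the others. Without that rat the interaction of Cxcl2 was -1.92, and without cafeteria fasted rat 5 that of Gp1bb was 0.95. The natural killer median without cafeteria refed rat 15 was -0.24.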

How the results depend on the processing

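The interaction count was 0 in all fits over both image-extraction runs, 0 without any 1 of the 29 arrays, and 1 within each run alone. The counts in the 2 diets and the overlap depended more on processing, and causes were not tested. In cafeteria rats the refed against fasted count was 0 with median centring, 175 with Cy5 alone, 164 with the authors' values, 82 with array weights, 4 within run 1, 0 within run 2 and 74 to 569 without 1 array (74 without cafeteria fasted rat 11, 569 without cafeteria refed rat 12). In control rats it was 921 with median centring, 4429 with the authors' values, 617 within run 1, 11 within run 2, 6 with the platelet covariate and 1908 to 2683 without 1 array. The platelet covariate did not overlap between control refed and control fasted rats. Probes called in both diets numbered 0 with median centring and within each run, 101 with Cy5 alone, 104 with the authors' values, 70 with array weights, 3 with the platelet covariate and 55 to 259 without 1 array, and all had the same sign. With the authors' values 3306 of the 4429 control calls were higher, against 866 of 2544 here, and with Cy5 alone 1303 of 2708. Between diets, refed rats gave 238 probes with processed signals, 0 with median centring, 206 with Cy5 alone, 482 with the authors' values, 54 with 1 probe per gene, 241 with array weights, 2 with slide as a block, 57 with run as a block, 2 and 0 within runs 1 and 2, and 14 to 240 without 1 array (14 without control refed rat 3). Fasted rats gave 45 with processed signals, 29 with median centring, 63 with Cy5 alone, 17 with the authors' values, 208 with 1 probe per gene, 193 with array weights, 204 with run as a block, 36 and 7 within runs 1 and 2, 559 with the platelet covariate and 94 to 519 without 1 array (94 without control fasted rat 5). With rat number as a replicate block the interaction count was 0, and 240 and 485 probes differed between diets in refed and fasted rats. Same-numbered rats correlated at -0.15 to 0.21, with 2 of 14 pairs over 0.1. Whether the numbers pair the rats cannot be told from these correlations, and the main fit did not use them as pairs. Of named genes with an unadjusted p under 0.05, Msmo1 (0.14) and Oas1a (0.12) changed sign within run 1, Per1 (0.026) within run 2, and Gp1bb (-0.18), Gapdh (-0.021) and Gp9 (-0.037) with the platelet covariate. Gp1bb and Gp9 belong to the list whose mean is that covariate. Run 1 holds 1 array each of cafeteria refed and fasted rats and run 2 holds 1 of control fasted rats, and such an array was assumed to vary like the other groups.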

Other observations

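Housekeeping and signalling lists had median interactions near that of all genes. Of 36 proteasome genes 25 had a negative interaction, with a median of -0.056, and 2 rose in control rats after refeeding, against 3.25% of all genes. Of 32 cell cycle genes 22 were positive, with a median of 0.053. Heat shock genes (11), insulin and leptin signalling genes (19) and glycolysis genes (17) had medians of -0.0050, -0.033 and -0.071, beside -0.0071 over all genes.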
